A study of Mus musculus with 64 samples.

Results

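The NR4A receptors and the classical immediate early genes were followed in mouse gastrocnemius, a mixed calf muscle, 3 h after a treadmill run. The 10 genes were fixed by name as Nr4a1, Nr4a2, Nr4a3, Fos, Jun, Junb, Egr1, Atf3, Ier2 and Btg2, and all 10 were among the 15241 genes tested of 55401 in the count file. Muscle RNA of 64 mice was sequenced, 8 groups being formed by genotype, time of day and treatment with equal numbers of the sexes (4 of each) and each library being 1 muscle of 1 mouse. The fl/fl groups were littermates homozygous for a floxed Hif1a allele without Cre. The HIF1α KO groups carried the same floxed allele with Cre under the human α-skeletal actin promoter, which acts in muscle fibers and leaves the gene intact in the other cells of the tissue. Both genotypes were on a C57BL/6JBomTac background and the mice were 12 to 18 weeks old. Exercised mice ran for 60 min at up to 16 m/min on a 5% incline at zeitgeber time (ZT) 3, in the light phase, or at ZT15, in the dark phase, and sedentary mice stayed on a mock treadmill. Mouse 44, an exercised HIF1α KO mouse at ZT3 that the study left out for low coverage, was also left out here, so that group held 7 mice and the others 8.

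Immediate early genes are switched on within minutes of calcium, cAMP or growth factor signals, without new protein synthesis, and their transcripts are short-lived. In skeletal muscle they are known to respond to contraction. Nr4a1, Nr4a2 and Nr4a3 encode orphan nuclear receptors, of which Nr4a3 is known as a contraction-responsive gene of muscle. Fos, Jun and Junb encode subunits of the AP-1 transcription factor, Egr1 a zinc finger transcription factor, Atf3 a stress-induced factor of the ATF/CREB family, Btg2 an antiproliferative protein, and Ier2 a small nuclear protein. Because muscle was taken 3 h after the run, the values describe what was left or had been reached at that time and not the peak of a fast response. In bulk tissue, fewer expressing cells and less RNA per cell cannot be told apart.

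The upstream sequence of 4 of the genes is shown because 3 of them rose after exercise while Fos did not pass the test. The 250 bases before the RefSeq start are printed from the RefSeq promoter table (build GRCm38.p6), 5′ to 3′ on the gene's own strand, with every cAMP response element core (TGACG or its reverse complement) in capitals. They lie at chr4:48045055-48045304 on the plus strand for Nr4a3, chr1:191183334-191183583 on the minus strand for Atf3, chr4:95052223-95052472 on the minus strand for Jun, and chr12:85473640-85473889 on the plus strand for Fos. The annotated genes span chr4:48045153-48086447, chr1:191170296-191218039, chr4:95049034-95052222 and chr12:85473890-85477273 in the same order, so the RefSeq starts of Nr4a3 and Atf3 lie inside the annotated span and those of Jun and Fos at its edge.
Nr4a3: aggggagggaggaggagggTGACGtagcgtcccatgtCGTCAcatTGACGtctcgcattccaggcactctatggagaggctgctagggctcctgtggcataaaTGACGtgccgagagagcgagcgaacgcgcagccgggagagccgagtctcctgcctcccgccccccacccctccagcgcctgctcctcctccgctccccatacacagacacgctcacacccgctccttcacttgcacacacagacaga
Atf3: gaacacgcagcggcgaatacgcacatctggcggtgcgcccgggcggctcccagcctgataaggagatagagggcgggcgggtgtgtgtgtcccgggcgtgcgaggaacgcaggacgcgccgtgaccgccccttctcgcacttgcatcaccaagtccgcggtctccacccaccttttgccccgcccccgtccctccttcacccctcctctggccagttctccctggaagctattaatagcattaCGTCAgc
Jun: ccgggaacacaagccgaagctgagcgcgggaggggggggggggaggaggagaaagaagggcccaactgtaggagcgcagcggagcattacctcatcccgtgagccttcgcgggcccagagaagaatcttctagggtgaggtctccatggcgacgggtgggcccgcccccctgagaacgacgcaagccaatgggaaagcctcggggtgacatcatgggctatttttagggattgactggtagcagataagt
Fos: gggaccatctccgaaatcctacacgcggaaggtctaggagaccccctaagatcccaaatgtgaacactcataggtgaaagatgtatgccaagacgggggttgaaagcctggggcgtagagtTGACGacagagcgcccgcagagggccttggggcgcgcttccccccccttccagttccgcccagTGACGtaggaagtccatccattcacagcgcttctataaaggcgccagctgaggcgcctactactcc

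The windows held 4 such cores in Nr4a3, 1 in Atf3, 0 in Jun and 2 in Fos. The promoter table had an entry for 8 of the 10 genes that could be shown or searched, and 7 of these 8 held the core, against 17.8% of 32851 mouse promoters of the same length. A TATA box (TATAAA) was found in Fos and Nr4a2 and in 12.4% of all promoters. The core of a hypoxia response element (ACGTG or GCGTG), the letters that HIF1α binds, was found in 7 of the 8, all but Jun, and in 38.6% of all promoters. In Nr4a3 this core overlapped a cAMP response element core 147 to 141 bases before the start. An AP-1 site (TGAGTCA or TGACTCA) and the CArG box of serum response elements were in 0 of the 8, and in 4.46% and 1.47% of all promoters. All motifs were searched on both strands, and a match is a description of the letters only. The lack of a match within 250 bases says nothing about sites farther away, sites with other letters or the genes not searched.

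The 63 libraries held 2359780 to 40377963 counts (median 16236352), and a level of 1 CPM (counts scaled to the total of the library) stood for 2.36 to 40.4 counts, and no library was at 0 for any of the 10 genes. The lowest count was 1, for Nr4a2, so the levels of this gene are the least precise. The muscle fiber markers Acta1, Ckm, Myh4, Myh1 and Tnnt3 summed to 74725 to 146519 CPM and none of them was at 0. Hif1a itself had 25.9 to 57.2 CPM in fl/fl and 28.8 to 49.7 CPM in HIF1α KO muscle (log2 fold change 0.004, SE 0.05, edgeR adjusted p = 0.979). The deletion removes exon 2 only and the other cells keep the gene, so counts over the whole gene do not check the genotype, which here rests on the labels. The study itself reported a lower Hif1a transcript level in quadriceps muscle of HIF1α KO mice than in fl/fl littermates.

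In all, 5 libraries stood apart in several of the genes at once, and all of them came from males. Junb reached 36 to 92.4 CPM in them and at most 17.9 CPM in the other 58, and a level of 30 CPM was set between these ranges after the values were seen. They were mouse 5 (fl/fl, ZT3, sedentary), mouse 8 (fl/fl, ZT15, sedentary), mice 21 and 35 (HIF1α KO, ZT3, sedentary) and mouse 34 (HIF1α KO, ZT3, exercised). Mouse 35 exceeded every other library of its group outside the 5 in all 10 genes, and the other 4 mice did so in 7 of the 10 each. Of 41 further early response genes tested, 21 to 32 were above the rest of the group in each of these libraries, against 10.7% to 17.1% of all genes tested. The 5 libraries held 9785696 to 21911438 counts and 1.75% to 7.88% mitochondrial rRNA reads, which lay within the ranges of their groups. In mouse 5 the blood markers summed to 529 CPM against 108 to 163 CPM in the rest of its group, and the leukocyte and macrophage markers to 273 CPM against 80.1 to 149 CPM. Blood markers were also above the rest of the group in mouse 21 (250 CPM against 99.3 to 185 CPM), fibroblast markers in mice 5 (2769 CPM against at most 1973) and 8 (2087 CPM against at most 1821), and smooth muscle markers in mice 8 and 21. Endothelial and satellite cell markers were below it in mice 8 and 21, and adipocyte markers in mice 5 and 35. Leukocyte markers were also above the rest of the group in mice 8 and 34 but not in mice 21 and 35, and muscle fiber markers were above it in mice 8, 34 and 35 and below it in mouse 21. The part of these markers in the high levels was not tested. The comparisons are therefore given with and without the 5 libraries. Leaving them out lowers the male mean by construction. It also lowers the sedentary and ZT3 means most, and the spread of the genes in which they were high. Calls gained or lost in such fits are a description and no independent support.

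**Figure D1:**
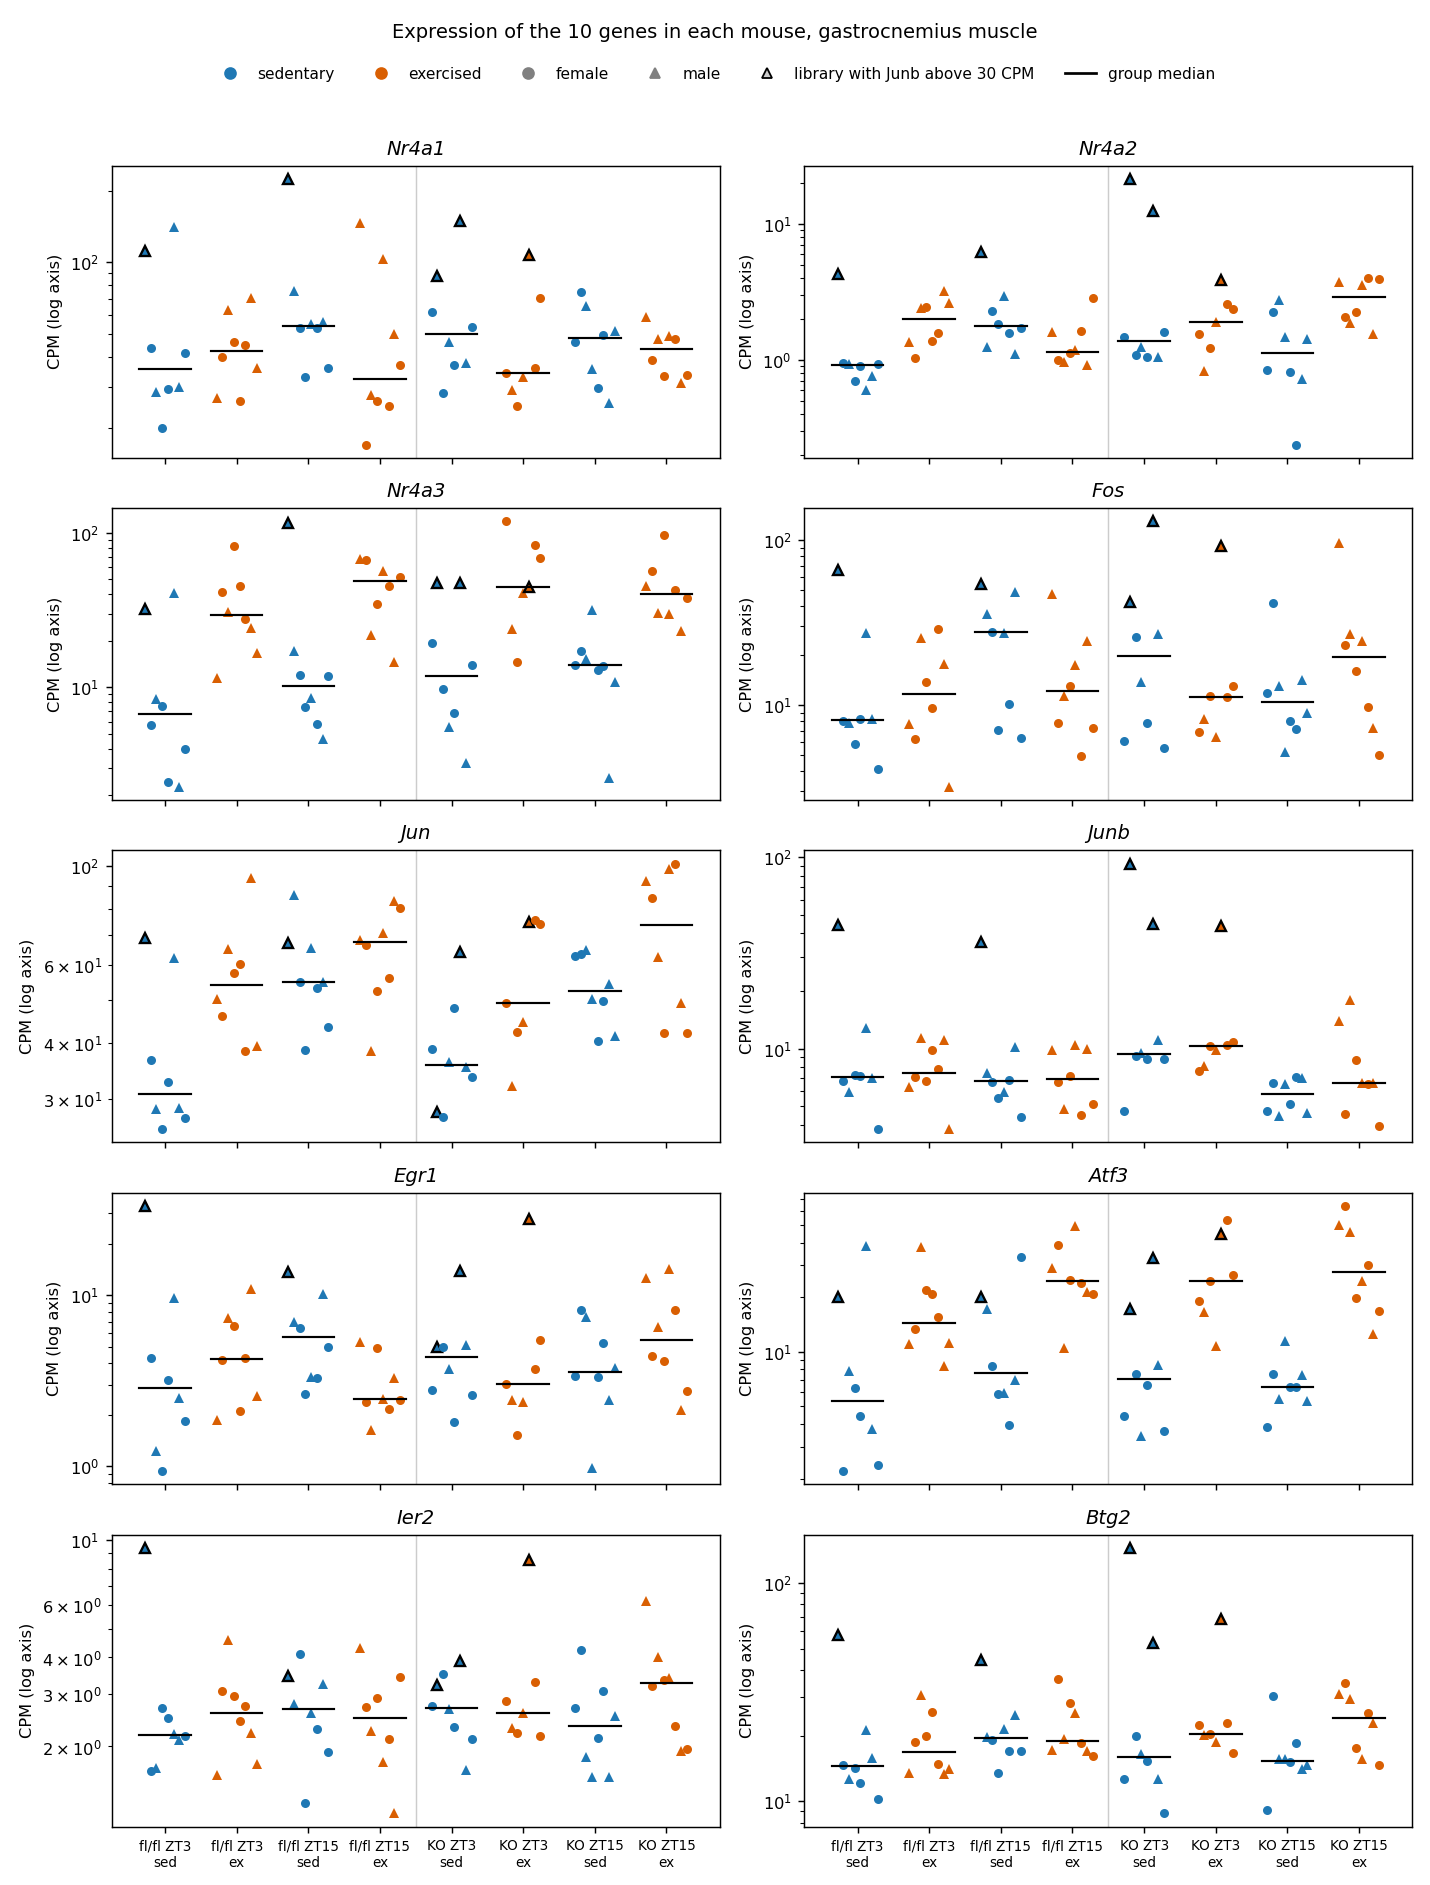
Each panel plots 1 gene in CPM on a log axis against the 8 groups (KO, HIF1α KO; sed, sedentary; ex, exercised), with 1 point per mouse, triangles for males and circles for females, a black line at the group median and a black outline around the 5 libraries with Junb above 30 CPM. Nr4a3 and Atf3 have higher medians in the exercised group of all 4 pairs, and the outlined libraries lie at the top of most panels.

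The question of the main comparison was which of these transcripts differed 3 h after the run. Averaged over genotype and time of day, 3 of the 10 rose and none fell, against 2.84% of all genes tested. The 10 genes were chosen with earlier results of these data known, so the larger share is a description and no independent support. Atf3 rose 2.79-fold (log2 fold change 1.48, SE 0.24, n = 31 exercised and 32 sedentary, edgeR adjusted p = 3.7e-05). Nr4a3 rose 2.74-fold (log2 fold change 1.46, SE 0.31, adjusted p = 0.003). Jun rose 1.34-fold (log2 fold change 0.42, SE 0.11, adjusted p = 0.0171). Among all 15241 genes, Atf3 and Nr4a3 ranked 4 and 5 by log2 fold change.

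Nr4a3 lay between 2.27 and 116 CPM in sedentary muscle (median 11.3) and between 11.53 and 118 CPM in exercised muscle (median 41.2). The ranges overlapped, but 31 of 31 exercised mice were above the sedentary median. In fl/fl muscle at ZT3 it lay between 2.27 and 40.9 CPM at rest (median 6.67) and between 11.53 and 82.6 CPM after the run (median 29.2). At ZT15 the fl/fl values were 4.62 to 116 CPM at rest (median 10.2) and 14.6 to 67.3 CPM after the run (median 48.5). The highest sedentary value at ZT15 was that of mouse 8, and the next highest was 17.1 CPM. In HIF1α KO muscle at ZT3 it was 3.25 to 47.4 CPM at rest (median 11.9) and 14.6 to 118 CPM after the run (median 44.3), and at ZT15 it was 2.59 to 31.4 CPM (median 13.9) and 23.1 to 97.0 CPM (median 40.3). All 4 exercised medians thus exceeded all 4 sedentary medians.

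Atf3 lay between 2.2 and 38.2 CPM in sedentary muscle (median 6.50) and between 8.37 and 64 CPM in exercised muscle (median 21.9). Again 31 of 31 exercised mice were above the sedentary median, and 7 were above the highest sedentary value. The sedentary group medians were 5.39 and 7.70 CPM in fl/fl muscle at ZT3 and ZT15, and 7.05 and 6.43 CPM in HIF1α KO muscle. After the run they were 14.52 and 24.5 CPM in fl/fl and 24.8 and 27.5 CPM in HIF1α KO muscle. In HIF1α KO muscle at ZT15 the groups did not overlap, with 3.88 to 11.4 CPM at rest and 12.6 to 64 CPM after the run.

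Jun, the most abundant of the 10 per kilobase of exon, moved less. It lay between 25.6 and 85.8 CPM at rest (median 45.6) and between 32 and 101 CPM after the run (median 60.2), and 23 of 31 exercised mice were above the sedentary median. The overlap was wide. The residual SD of Jun was 0.40 on the log2 scale, the smallest of the 10, against 1.07 for Nr4a3. It was still above the median of 0.31 over all genes. Jun shares its locus with the antisense gene Junos, and the strand setting of the counting is not given in the sources used here.

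The other 7 genes did not pass the test. The log2 fold changes were −0.31 for Nr4a1 (95% interval −0.68 to 0.06, adjusted p = 0.582), −0.05 for Nr4a2 (−0.56 to 0.46), −0.18 for Fos (−0.76 to 0.40), −0.21 for Junb (−0.64 to 0.23), −0.12 for Egr1 (−0.66 to 0.42), 0.11 for Ier2 (−0.20 to 0.41) and 0.09 for Btg2 (−0.30 to 0.47). The Fos interval leaves room for a rise of 0.40 or a fall of 0.76, so these data bound the change and do not show its absence. Fos had medians of 11 CPM at rest and 11.3 CPM after the run, with ranges of 4.12 to 130 CPM and 3.19 to 95.8 CPM that covered each other. The median log2 fold change over the 10 genes was 0.02, beside −0.004 over all genes tested.

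When the 5 libraries with Junb above 30 CPM were left out, 5 of the 10 genes rose, while the calls over all genes went from 433 of 15241 to 579 of 15296. Nr4a3 then had a log2 fold change of 2.02 (adjusted p = 1.5e-07), Atf3 of 1.69 (adjusted p = 1.87e-06) and Jun of 0.46 (adjusted p = 0.00528). Nr4a2 turned from −0.05 to 0.58 (adjusted p = 0.0121), and Btg2 moved from 0.09 to 0.42 (adjusted p = 0.0117). Fos stayed near 0 at 0.03 (adjusted p = 0.991) and Egr1 at 0.02 (adjusted p = 0.991). Of the 5 libraries 4 were sedentary, so they raised the sedentary mean of the genes in which they were high. The 5 were picked on Junb, a gene of the 10, after the values were seen. Calls gained without them follow in part from that choice and are no added support.

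**Figure D2:**
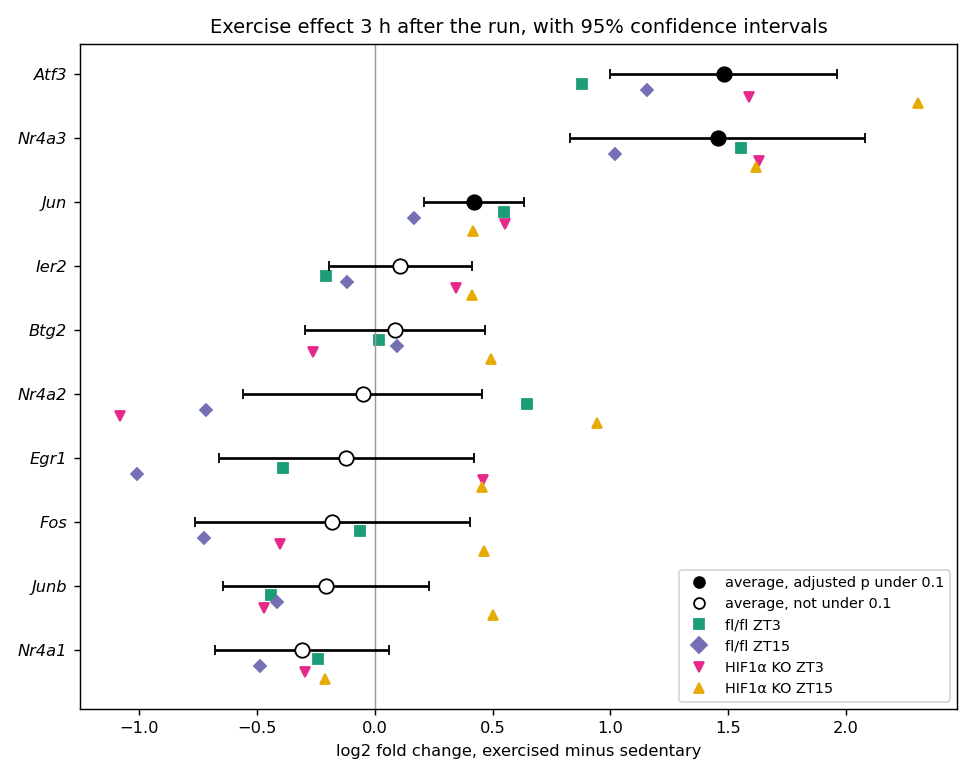
The x axis is the log2 fold change of exercised against sedentary muscle and the rows are the 10 genes, with a black point and its 95% interval for the average over the 4 pairs of groups (filled for adjusted p under 0.1) and coloured symbols for each pair. Atf3, Nr4a3 and Jun lie above 0 in all 4 pairs, while Nr4a2 runs from −1.08 to 0.94.

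Within single pairs of groups the fits had less power. No gene of the 10 was called in fl/fl muscle at ZT3 (background 0.236%) or at ZT15 (background 0%), or in HIF1α KO muscle at ZT3 (background 0.131%), by edgeR, DESeq2 or limma-trend, and 2, 1 and 4 of them had an unadjusted p under 0.05. In HIF1α KO muscle at ZT15 (background 0.0591%) Atf3 alone was called, at 2.30 on the log2 scale (SE 0.49, adjusted p = 0.0343). This call was lost without mouse 9 (adjusted p = 0.159) or mouse 15 (adjusted p = 0.131), and a call of Atf3 in HIF1α KO at ZT3 appeared without mouse 35 (log2 fold change 2.00, adjusted p = 0.0873). The log2 fold changes of Atf3 were 0.88, 1.15, 1.59 and 2.30 in the order fl/fl ZT3, fl/fl ZT15, HIF1α KO ZT3 and HIF1α KO ZT15, and those of Nr4a3 were 1.56, 1.02, 1.63 and 1.62. The effect of exercise on Atf3 differed between genotypes by 0.93 (95% interval −0.01 to 1.87, adjusted p = 1) and that on Nr4a3 by 0.34 (−0.84 to 1.51, adjusted p = 1), so a difference between genotypes was not shown.

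Leaving out the 5 libraries, calls in the single pairs rose to 1 in fl/fl at ZT3 (Nr4a2, log2 fold change 1.27, adjusted p = 0.0325), 1 in fl/fl at ZT15 (Nr4a3, 2.22, adjusted p = 0.0521), 2 in HIF1α KO at ZT3 (Nr4a3, 2.58, adjusted p = 0.014, and Atf3, 2.18, adjusted p = 0.0525) and stayed at 1 in HIF1α KO at ZT15 (Atf3, 2.29, adjusted p = 0.0112). The calls over all genes also rose, from 36, 0, 20 and 9 of 15241 to 60, 40, 43 and 28 of 15296 in the same order. For Nr4a2 in fl/fl at ZT3, sedentary muscle held 0.602 to 4.26 CPM (median 0.916) and exercised muscle 1.03 to 3.20 CPM (median 1.99). Mouse 5 supplied the 4.26 CPM, and the next highest sedentary value was 0.941 CPM, below all exercised values.

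Other genes of the same signalling branch were read from lists of known early response genes, upstream factors and partners. Of 41 tested early response genes outside the 10, 4 rose and 2 fell after exercise, against 2.84% of all genes tested called in either direction. Their median log2 fold change was 0.08. Maff, a small Maf transcription factor, rose 2.60-fold (log2 1.38, adjusted p = 5.25e-05) and its relative Mafk 1.41-fold (log2 0.49, adjusted p = 3.24e-06). Sik1, a kinase known as a cAMP target, rose 1.56-fold (log2 0.64, adjusted p = 0.0618), and Gadd45a, a growth arrest gene, 1.22-fold (log2 0.28, adjusted p = 0.0292). Gadd45b fell by 0.67 on the log2 scale (adjusted p = 7.58e-05) and Klf10, a Krüppel-like factor, by 0.43 (adjusted p = 0.0074). When the 5 libraries were left out, 11 of the 41 rose and 2 fell, while 579 of 15296 genes were called in all. Of the 5 libraries 4 were sedentary, and all 5 were high in many of the 41. The added calls follow in part from that choice and are no added support.

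Of 21 upstream factors 1 rose, Crem (log2 fold change 0.42, adjusted p = 0.000178), which encodes a cAMP-responsive modulator of transcription. Of 11 tested partner factors (RXR receptors, AP-1 partners and others), 0 passed by edgeR, with 2 at an unadjusted p under 0.05, while DESeq2 called 1 of 13 and limma-trend 0 of 11. Of 15 known exercise genes 4 rose, against 2.84% of all genes tested, and the others, Pdk4, Vegfa and Angptl4 among them, did not pass. Ppargc1a, the transcriptional coactivator of mitochondrial biogenesis, rose by 1.22 on the log2 scale (edgeR adjusted p = 5.05e-12) and the hexokinase Hk2 by 0.42 (adjusted p = 0.0235). The metallothioneins rose by 1.24 for Mt1 (adjusted p = 0.000233) and 1.23 for Mt2 (adjusted p = 0.00451). This list was chosen with earlier results of these data known, so it is no independent check of the response to exercise. Among 8 marker lists of other cell types, 1 gene changed with exercise, the satellite cell marker Pax7, which was lower.

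The genotype comparison asked whether loss of HIF1α in muscle fibers altered the levels of these genes. Averaged over the other factors, 0 of the 10 genes were called by edgeR, DESeq2 or limma-trend, against 8.26% of all genes tested, and 1 had an unadjusted p under 0.05. That gene was Nr4a2, with a log2 fold change of 0.59 (SE 0.25, 95% interval 0.09 to 1.09, adjusted p = 0.16). Without mouse 5 this became a call (0.73, adjusted p = 0.0798), and without all 5 high libraries it was 0.30 (adjusted p = 0.249), with 0 of the 10 genes and 849 of 15296 genes called. Its median was 1.61 CPM in HIF1α KO and 1.36 CPM in fl/fl muscle. Of the 10 log2 fold changes 9 were above 0, with a median of 0.15. The intervals were narrow for Jun (0.02, −0.19 to 0.24) and wide for Nr4a3 (0.18, −0.41 to 0.77).

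In sedentary mice at ZT3, Nr4a2 was the gene called (background 0.400%), with a log2 fold change of 1.86 (SE 0.48, edgeR adjusted p = 0.0799). The fl/fl values were 0.602 to 4.26 CPM (median 0.916) and the HIF1α KO values 1.04 to 21.5 CPM (median 1.37). The 21.5 CPM belonged to mouse 21 and the next value, 12.5 CPM, to mouse 35, while the other 6 HIF1α KO mice had at most 1.61 CPM. Without mouse 21 the log2 fold change was 1.03 (adjusted p = 0.585), and leaving out mice 18, 22, 35, 38, 54, 60 or 62 also lost the call. Without all 5 high libraries it was 0.60 (adjusted p = 0.911). The call was thus near the threshold and was lost without any of 8 single mice of both genotypes. The estimate fell most without mouse 21.

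No gene of the 10 differed by genotype in exercised mice at ZT3 (background 1.43%), in sedentary mice at ZT15 (background 0.0459%) or in exercised mice at ZT15 (background 0.400%) by edgeR, DESeq2 or limma-trend, and 0, 0 and 1 had an unadjusted p under 0.05. The 10 estimates were all above 0 in the exercised ZT3 pair, with a median of 0.43, and all below 0 in the sedentary ZT15 pair, with a median of −0.49. The sedentary fl/fl group at ZT15 held mouse 8 and the exercised HIF1α KO group at ZT3 held mouse 34. Without the high libraries 4 of the 10 estimates were above 0 in the exercised ZT3 pair and 1 in the sedentary ZT15 pair. In the exercised ZT15 pair, which held none of the 5, Nr4a2 was then called (log2 fold change 1.04, adjusted p = 0.0726, with 70 of 15296 genes called), against 1.02 (adjusted p = 0.673) with all libraries in the fit. Gpd2, the mitochondrial glycerol-3-phosphate dehydrogenase gene that neighbours Nr4a2, was higher in HIF1α KO muscle by 0.19 on the log2 scale (adjusted p = 0.00112). Over all genes tested 8.26% were called for genotype on average. In the lists, Gadd45a and Ier5 of 41 early response genes and Atf4 and Nab1 of 11 partners were higher in HIF1α KO muscle, by 0.15 to 0.28 on the log2 scale. By edgeR 0 of 21 upstream factors and 0 of 15 exercise genes passed. At an unadjusted p under 0.05 there were 3 of each, limma-trend called 0 and DESeq2 called 1 exercise gene, which was lower.

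For time of day, 2 of the 10 genes were called on average, against 8.02% of all genes tested, and they moved in opposite directions. Here ZT3 and ZT15 name the time of the run or mock run, and muscle was taken 3 h after it. The levels therefore belong to a later hour of the day than the group name. Jun was higher at ZT15 by 0.39 on the log2 scale (SE 0.11, adjusted p = 0.0146), with 38.3 to 101 CPM (median 59.3) at ZT15 and 25.6 to 94.0 CPM (median 42.4) at ZT3, and 26 of 32 ZT15 mice exceeded the ZT3 median. Junb, which can oppose Jun within AP-1, fell by 0.71 on the log2 scale at ZT15 (SE 0.22, adjusted p = 0.0376), with medians of 6.63 CPM at ZT15 and 8.80 CPM at ZT3. Without the 5 libraries, of which 4 were from ZT3, Jun kept a log2 fold change of 0.46 (adjusted p = 0.00313) and Junb had −0.26 (adjusted p = 0.21). Junb also overlaps the oppositely oriented gene Prdx2, which held 77090 counts over the 63 libraries, so its level is uncertain where the counting did not use strand.

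Within single groups of genotype and treatment, 0 of the 10 were called by edgeR in sedentary fl/fl (background 1.88%), exercised fl/fl (background 1.18%) and exercised HIF1α KO mice (background 0.663%), with 1, 0 and 0 at an unadjusted p under 0.05 and 0 by DESeq2 or limma-trend. In sedentary HIF1α KO mice (background 0.479%) Junb was lower at ZT15, with 4.43 to 7.13 CPM (median 5.83) against 4.70 to 92.4 CPM (median 9.34) at ZT3 (log2 fold change −1.76, SE 0.44, adjusted p = 0.0547). This call was lost when mouse 15, 21, 25, 35, 43 or 64 was left out, and without mouse 21 the log2 fold change was −1.15 (adjusted p = 0.484). Nr4a2 became a call in the same groups without mouse 45 (−1.78, adjusted p = 0.0932), and Junb was at −0.65 (adjusted p = 0.539) without the 5 libraries. In sedentary fl/fl mice Jun was higher at ZT15 by 0.58 (adjusted p = 0.177), and this became a call without mouse 5 (0.76, adjusted p = 0.0704) or mouse 54 (0.69, adjusted p = 0.0811), while without the 5 libraries Nr4a2 was the gene called (1.06, adjusted p = 0.0896). Of the lists, Zfp36l1, Pim1 and Dusp5 of 41 early response genes, Mrtfb of 21 upstream factors and Jdp2 of 11 partners were higher at ZT15. Over all genes tested 8.02% were called, so the shares of the early response genes, upstream factors and partners were near that of all genes. The early response genes called went from 3 to 13 of 41, all higher at ZT15, when the 5 libraries were left out, while the calls over all genes went from 1222 of 15241 to 1251 of 15296. Of the 15 exercise genes, Cdkn1a, Hspa1a and Hspa1b were higher and Txnip, Angptl4 and Pdk4 lower. That share was above that of all genes, in a list chosen with earlier results of these data known.

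By edgeR none of the 10 genes showed an interaction past the threshold, and neither did any other gene tested (background 0% for exercise with genotype, exercise with time of day, genotype with time of day and all 3 together). At an unadjusted p under 0.05 edgeR gave 1, 0, 1 and 1 of the 10, and DESeq2 and limma-trend called 0 of them. Over all genes limma-trend called 0, and for all 3 factors together 1 gene was called by DESeq2 and 1 by edgeR among the 8896 genes with at least 10 counts in every library. The estimates were 1.16 for Egr1 in exercise by genotype (95% interval 0.06 to 2.25), −1.12 for Junb in genotype by time of day (−1.99 to −0.25) and 3.39 for Nr4a2 in the interaction of all 3 factors (1.38 to 5.4, adjusted p = 0.262). They were 0.36, −0.35 and 2.05 on the log2 scale without the 5 libraries, with adjusted p of 1, 1 and 0.278.

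**Figure D3:**
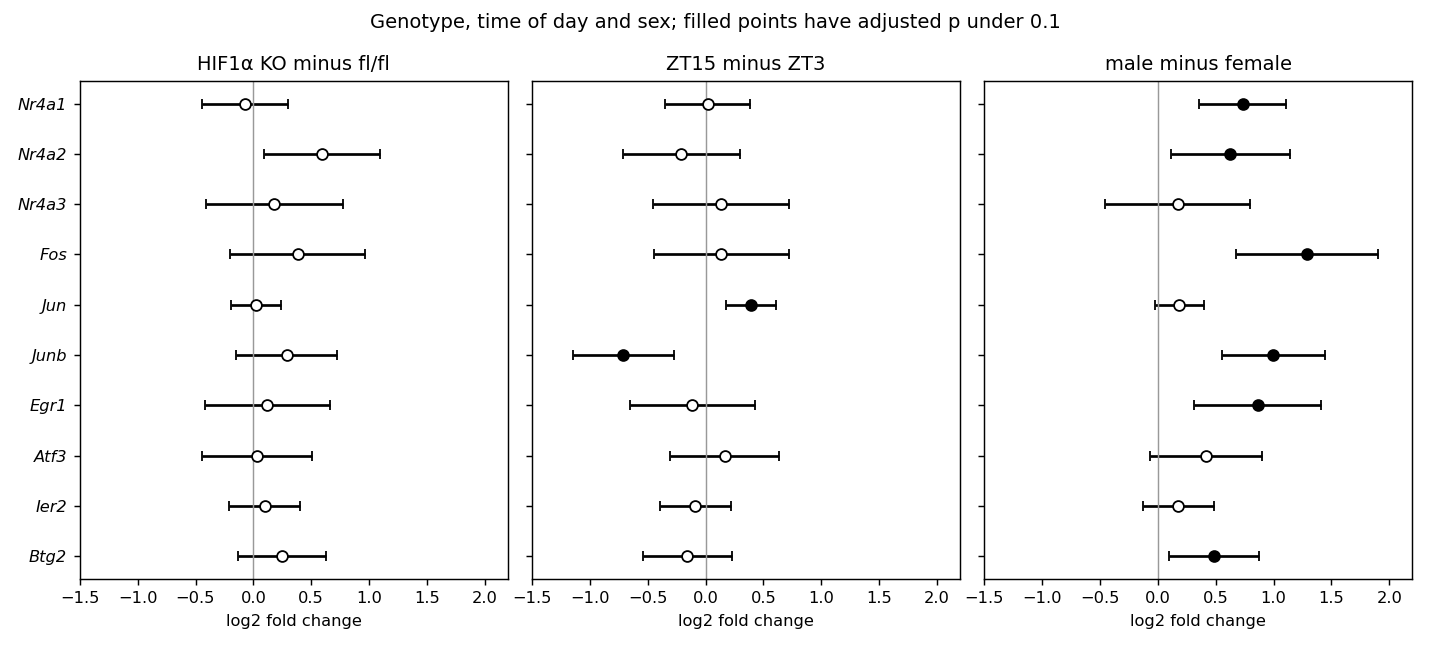
The 3 panels share the rows of the 10 genes and plot the average log2 fold change for genotype, time of day and sex with 95% intervals, filled where the adjusted p was under 0.1. No point is filled for genotype, Jun and Junb are filled on opposite sides for time of day, and 6 points are filled on the male side for sex.

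Males and females were compared within the same fit. In all, 6 of the 10 genes were higher in males and none was lower. Of all 15241 genes tested 25.1% were called in either direction, 2023 higher and 1798 lower in males. Fos was 2.44-fold higher (log2 fold change 1.29, SE 0.30, adjusted p = 0.00113), with 3.19 to 130 CPM in 31 males (median 24.3) and 4.12 to 41.6 CPM in 32 females (median 8.11), and 25 males exceeded the female median. Junb was 2.00-fold higher (log2 1.00, adjusted p = 0.00049), with 11 males above the highest female at 10.8 CPM. Egr1 (log2 0.86, adjusted p = 0.0191) and Nr4a1 (log2 0.73, adjusted p = 0.00274) each had 9 males above every female. Nr4a2 (0.63, adjusted p = 0.0759) and Btg2 (0.49, adjusted p = 0.0702) completed the 6, and their medians were close, at 1.56 CPM in both sexes for Nr4a2 and at 19.4 and 17.2 CPM for Btg2. Nr4a3, Jun, Atf3 and Ier2 had log2 fold changes of 0.17 (−0.46 to 0.80), 0.19 (−0.03 to 0.40), 0.42 (−0.07 to 0.90) and 0.18 (−0.13 to 0.48).

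Without the 5 male libraries, 3 of the 10 were higher in males, and 3617 of 15296 genes were called in either direction, so the share of the 10 was near that of all genes. They were Junb (log2 0.33, adjusted p = 0.0351), Fos (0.71, adjusted p = 0.0601) and Nr4a1 (0.43, adjusted p = 0.0837). Egr1 was then at 0.29 (adjusted p = 0.404), Nr4a2 at −0.09 (adjusted p = 0.733) and Btg2 at −0.01 (adjusted p = 0.96). The calls of Nr4a2 and Btg2 were also lost when any of several single mice was left out, with adjusted p up to 0.152 without mouse 5 for Nr4a2 and up to 0.154 without mouse 34 for Btg2. The mice concerned were 5, 8, 15, 16, 21, 30, 33, 34 and 55 for Nr4a2 and 5, 8, 12, 16, 21, 33, 34 and 55 for Btg2. Under limma-trend 3 of the 10 were called, with Egr1 at an adjusted p of 0.127.

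Of the 41 other early response genes 18 were higher and 1 lower in males, with Gadd45g (log2 1.42, adjusted p = 8.3e-08), Socs3 (1.13, adjusted p = 2.82e-05), Ier5 (0.50, adjusted p = 8.25e-05) and Arc (0.95, adjusted p = 0.000138) higher and Gadd45a lower (−0.39, adjusted p = 8.71e-05). The counts were 6 higher and 2 lower of 41 without the 5 libraries. In that fit 3617 of 15296 genes were called, so the share of the 41 was not above that of all genes. Upstream, 5 of 21 were higher in males, among them Srf (0.34, adjusted p = 7.71e-06), the serum response factor, and 1 lower, the calcineurin subunit gene Ppp3ca (−0.34, adjusted p = 8.05e-11). Of 11 partners 4 were higher, and of 15 exercise genes 7 were higher and 1 lower. Over all genes tested 25.1% were called for sex in either direction, so the upstream share was near that of all genes. With all 63 libraries the shares of the early response and exercise genes were above it, in lists chosen with earlier results known. Markers differed between the sexes too, with 3 of 4 adipocyte, 3 of 4 Schwann cell and 2 of 4 fibroblast markers lower and 3 of 5 blood, 2 of 5 muscle fiber and 2 of 3 smooth muscle markers higher in males. Their part in the sex difference was not tested.

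**Figure D4:**
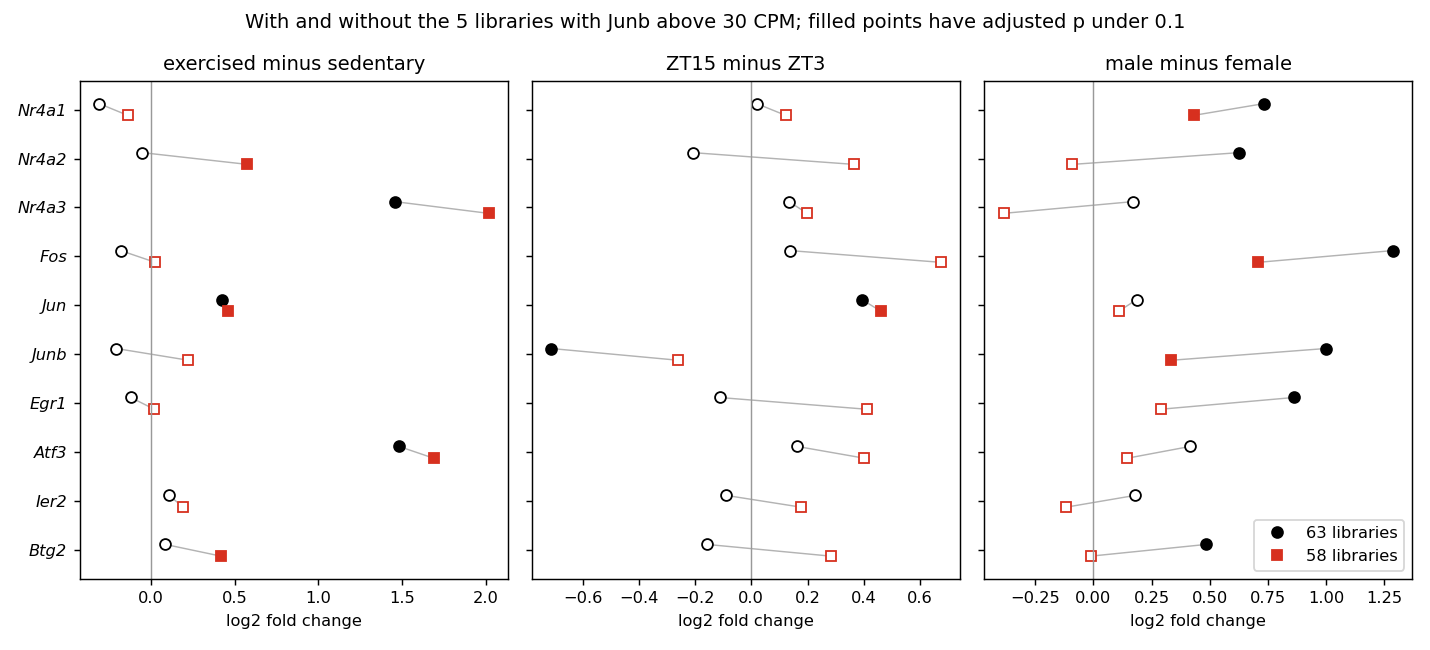
Log2 fold changes of the 10 genes for exercise, time of day and sex are plotted for all 63 libraries (black circles) and for the 58 without the libraries with Junb above 30 CPM (red squares), filled where the adjusted p was under 0.1. The squares lie to the right of the circles for exercise and to the left for sex, and the number of filled points goes from 3 to 5 for exercise and from 6 to 3 for sex.

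Levels were compared between genes per kilobase of exon over all mice. The medians were 16.4 CPM per kilobase for Jun, 12.4 for Nr4a1, 6.74 for Btg2, 6.20 for Atf3, 4.81 for Fos, 3.86 for Nr4a3, 3.13 for Junb, 1.70 for Ier2, 0.823 for Egr1 and 0.384 for Nr4a2. The NR4A receptors thus spanned the range, with Nr4a1 near the top and Nr4a2 at the bottom. The spread between mice of a group followed another order. After group and sex were removed, the SD on the log2 scale was 1.07 for Nr4a3, 1.04 for Fos, 0.94 for Egr1, 0.86 for Atf3 and 0.82 for Nr4a2, each above that of at least 98.0% of the genes tested, and 0.40 for Jun, above that of 65%.

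The same mice tended to be high in several of the genes. Over 63 mice, all 45 pairs of the 10 genes had a positive Pearson correlation of the residual log2 CPM, with a median r of 0.55 and a range of 0.26 to 0.81. Permutation p-values from 100000 resamples were at most 0.0369 after adjustment over the 45 pairs. Junb and Btg2 were the closest pair (r = 0.81, Spearman's rho = 0.72, permutation p = 1e-05, the smallest that can be reached, adjusted p = 2.14e-05, r = 0.71 without the 2 mice farthest from the median of Junb). For Fos and Egr1 r was 0.77 (rho 0.74, 0.75 without 2 mice), and for Fos and Junb 0.70 (rho 0.71, 0.69 without 2 mice), both at the same permutation p. The pair with the lowest value was Jun and Btg2 (r = 0.26, rho 0.28, permutation p = 0.0369, 0.17 without 2 mice). Among the NR4A receptors r was 0.65 for Nr4a1 and Nr4a3, 0.56 for Nr4a2 and Nr4a3 and 0.49 for Nr4a1 and Nr4a2, with permutation adjusted p of 2.14e-05, 5e-05 and 6.43e-05.

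Blocks of 16 consecutive mouse numbers, which the labels do not call batches, accounted for 3.37% (Atf3) to 26.7% (Jun) of the residual variance of a gene. Within the 4 blocks, all but 2 of 180 correlations were positive, and removing the blocks gave a median r of 0.54. Without the 5 high libraries the median r fell to 0.33, with a range of −0.23 to 0.67, and 3 of 45 pairs were negative, all of which included Nr4a2. For Junb and Btg2 r went from 0.81 to 0.42, while for Fos and Egr1 it went from 0.77 to 0.67 and for Fos and Junb from 0.70 to 0.64. The size of several correlations thus depended on the 5 libraries. These were picked on high Junb, which narrows the range of the genes high in them. Lower values of r without them therefore follow in part from that choice. The genes in a pair also share library and depth.

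**Figure D5:**
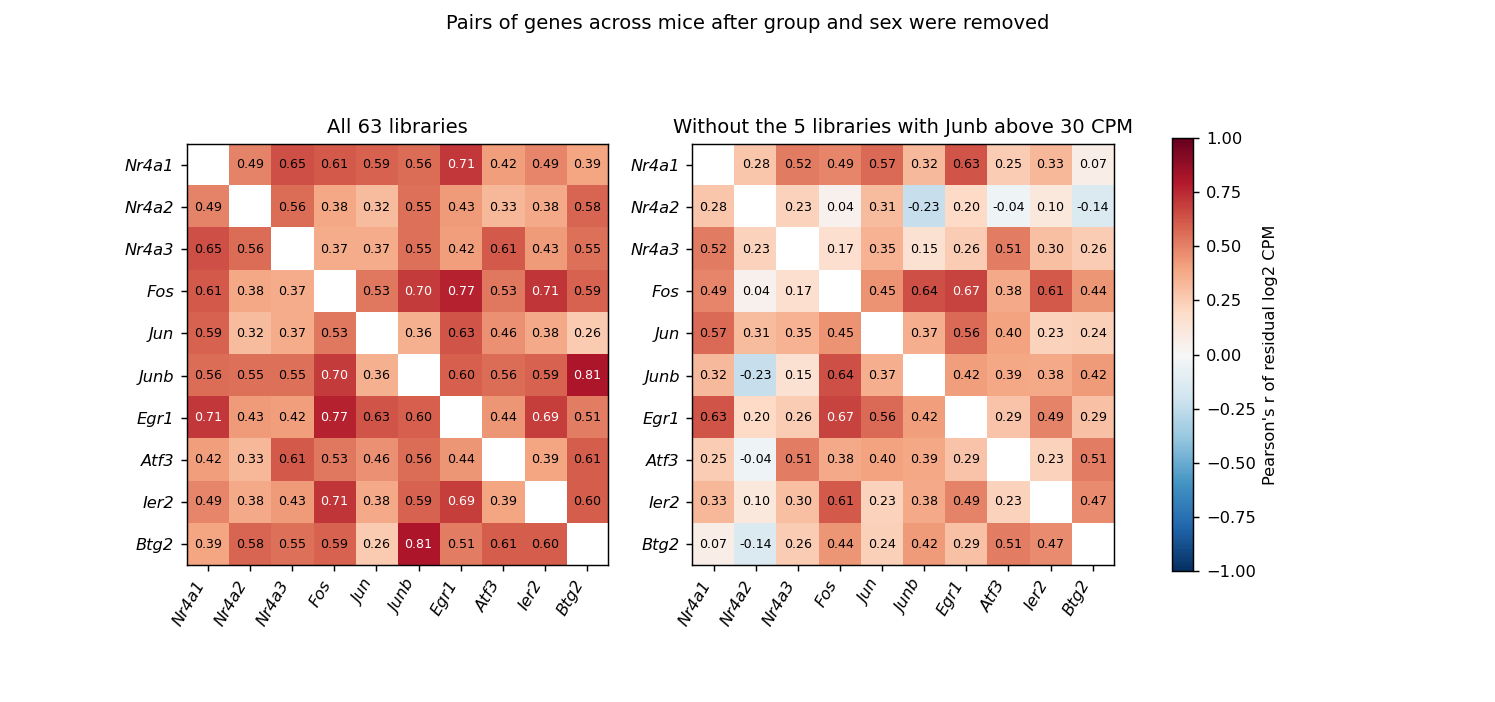
Each cell gives Pearson's r of the residual log2 CPM of a pair of genes across mice, coloured from blue (−1) through white to red (1), on the left for all 63 libraries and on the right without the 5 with Junb above 30 CPM. All pairs are positive on the left, and on the right the row of Nr4a2 holds the 3 negative pairs while the pairs among Fos, Junb, Egr1 and Ier2 stay positive.

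Over 12673 genes outside the 10 with a mean of at least 1 CPM, the genes most like Fos across the 63 mice were Fosb (r = 0.84), Klf2 (r = 0.70) and Dusp1 (r = 0.65). Those most like Nr4a3 were Sik1 (r = 0.80), the protease gene Adamts9 (r = 0.75) and the insulin receptor substrate gene Irs2 (r = 0.75). These values are descriptions over all 63 libraries, the 5 high ones included.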

How the data were processed

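RNA from gastrocnemius muscle of 64 mice was sequenced as poly-A stranded libraries with 52-bp paired reads. Alignment by the authors used STAR and the mm10 genome, and the deposited file holds unnormalized gene counts from featureCounts. Versions, annotation release and the strand setting are not given in the sources used here. Of 55401 gene identifiers 55141 had a symbol.

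Counts of 63 libraries (mouse 44 left out) were scaled by TMM and filtered with filterByExpr (minimum count 10), leaving 15241 genes. The 8 groups and sex were fitted by edgeR 4.0.16 (robust quasi-likelihood test, R 4.3.3), and p-values were Benjamini-Hochberg adjusted over all genes within each of 20 comparisons. A gene was called at an adjusted p under 0.1. CPM used TMM-scaled library sizes, and log2 CPM a prior count of 2. The study's own test was DESeq2, run here as an alternative (version 1.42.0), and limma 3.58.1 gave limma-trend. Standard errors are the log2 fold change divided by the root of F, and intervals are 95%. The tests of group comparisons judge a difference against the variation between separate mice, each mouse being 1 replicate. Figures were drawn with Python 3.11.15 and matplotlib 3.10.9. No pair of libraries in a group was identical or within sampling noise (217 pairs).

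The 10 genes and the other gene lists were chosen with earlier results of these data known. Named from each other list were at most 5 genes per comparison with the smallest p among those called, and for Fos and Nr4a3 the 3 genes of highest correlation. In all, 14 alternatives were run, 12 of them planned. The limma-trend fit and the fit without the 5 libraries with Junb above 30 CPM were added after the values were seen.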

Additional observations from a re-analysis of the deposited data

Results flagged for a closer look

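Each of the 10 genes was screened in each of the 8 groups for a mouse whose log2 CPM lay far from the rest, measured as the gap to the nearest mouse divided by the range of the group. The gap passed the 95% critical value (0.526 for 8 mice, 0.568 for 7) in 11 of 80 cases, and chance alone passes about 5% of them. In 10 of the 11 the mouse was the highest of its group, and 3 mice accounted for all 10.

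Mouse 8, a sedentary fl/fl male at ZT15, was highest in Nr4a1 (224 CPM against 75.5 CPM in the next mouse, ratio 0.568), in Nr4a3 (116 against 17.1 CPM, ratio 0.598) and in Junb (36 against 10.1 CPM, ratio 0.605). Mouse 5, a sedentary fl/fl male at ZT3, was highest in Nr4a2 (4.26 against 0.941 CPM, ratio 0.787), in Ier2 (9.38 against 2.69 CPM, ratio 0.724) and in Btg2 (58.1 against 21.3 CPM, ratio 0.582). Mouse 34, a male of the exercised HIF1α KO group at ZT3, was highest in Fos (92.1 against 13.1 CPM, ratio 0.734), in Junb (43.6 against 10.8 CPM, ratio 0.802), in Ier2 (8.54 against 3.32 CPM, ratio 0.697) and in Btg2 (68.7 against 22.9 CPM, ratio 0.774). These 3 mice are among the 5 with Junb above 30 CPM. The other 2 of the 5, mice 21 and 35, share a group, so that each is the other's nearest neighbour in several genes.

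The remaining case was a low value, Nr4a3 in mouse 43, a sedentary HIF1α KO mouse at ZT15, with 2.59 CPM against 10.8 CPM in the next lowest mouse (ratio 0.568).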

How the results depend on the processing

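No paired analysis was possible because each mouse number occurs once in the labels, so no number is shared between groups. The calls of Nr4a3, Atf3 and Jun for exercise held in 10 of 10 other fits over all groups that kept the 5 high libraries (log2 fold changes 1.40 to 1.79, 1.41 to 1.59 and 0.40 to 0.43) and in all 63 fits that left out 1 mouse, as did the calls of Jun and Junb for time of day in the 10 fits. Depth limits Nr4a2 most, whose lowest library held 1 count. Where a value changed below, the cause was not tested.

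Leaving out 1 mouse at a time gave 0 to 1 called genes for exercise in HIF1α KO at ZT3 and at ZT15, for genotype on average and in sedentary mice at ZT3, and for time of day in sedentary fl/fl mice, and 0 to 2 for time of day in sedentary HIF1α KO mice. For genotype in sedentary mice at ZT3 the count was 0 with a minimum of 10 counts in every library, with no filter, with no sex term, with limma-trend, with only the compared groups, at an adjusted p under 0.05 and without the 5 libraries with Junb above 30 CPM. For time of day in sedentary HIF1α KO mice it was 2 by DESeq2 and with the mitochondrial rRNA share as covariate, and 0 with no filter, with limma-trend, with only the compared groups, at an adjusted p under 0.05 and without the 5 libraries. In sedentary fl/fl mice it was 1 with the block of 16 mouse numbers as covariate and 1 without the 5 libraries. For sex it was 3 by limma-trend, 3 without the 5 libraries, 4 with no filter, 4 of the 7 genes left with a minimum of 10 counts in every library, 5 without the 3 shallowest libraries, and 4 to 6 with 1 mouse left out.

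Without the 5 libraries the counts were also 5 for exercise on average, 1 in fl/fl at ZT3, 1 in fl/fl at ZT15, 2 in HIF1α KO at ZT3, 1 for genotype in exercised mice at ZT15 and 1 for time of day on average, and the median correlation was 0.33.

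Directions turned for genes that were mostly not called. For exercise, Nr4a2 was at 0.013 by DESeq2, 0.28 by limma-trend, 0.58 without the 5 libraries and up to 0.14 with 1 mouse left out, from −0.10. Fos was at 0.025, Junb at 0.22 and Egr1 at 0.020 without the 5 libraries, and with 1 mouse left out Fos ran from −0.37 to 0.059, Egr1 from −0.36 to 0.12 and Btg2 from −0.012 to 0.26. For genotype, Nr4a1 was at 0.077 with the block of mouse numbers, 0.050 with the mitochondrial share and −0.13 to 0.011 with 1 mouse left out. Atf3 was at −0.13 without the 5 libraries and −0.080 to 0.17 with 1 mouse left out, where Jun ran from −0.0089 to 0.053, Egr1 from −0.11 to 0.36 and Ier2 from −0.0078 to 0.22. For time of day, Nr4a1 was at −0.079 with the mitochondrial share and Egr1 at 0.093 by limma-trend. Nr4a2 was at 0.36, Egr1 at 0.41, Ier2 at 0.18 and Btg2 at 0.28 without the 5 libraries. With 1 mouse left out Nr4a1 ran from −0.073 to 0.085, Nr4a3 from −0.18 to 0.25, Fos from −0.088 to 0.31, Egr1 from −0.21 to 0.12, Ier2 from −0.15 to 0.043 and Btg2 from −0.22 to 0.025. For sex, Nr4a3 was at −0.11 by limma-trend, −0.39 without the 5 libraries and −0.062 to 0.24 with 1 mouse left out, and without the 5 libraries Nr4a2 was at −0.090, Ier2 at −0.12 and Btg2 at −0.012.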

Other observations

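The genes whose residual log2 CPM followed the other members most closely over the 63 mice were looked up after the values were seen. Jun was closest to Xirp1, a gene of the muscle cytoskeleton (r = 0.80), and to Bag3, a co-chaperone gene (r = 0.79). Nr4a1 was closest to Irs2 (r = 0.88), Junb to Apold1 (r = 0.85), Atf3 to Otud1 (r = 0.79), Egr1 to Zfp36 (r = 0.71) and Nr4a2 to Fosl2 (r = 0.78). Btg2 was closest to Errfi1 (r = 0.81) and Ier2 to Fosb (r = 0.68). These values are over all 63 libraries, the 5 with Junb above 30 CPM included.

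The library of mouse 44, which the study left out, held 382 counts in all, and each of the 10 genes had 0 counts in it. At that depth a count of 0 says nothing about the level of these genes.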
